A study of Rattus norvegicus with 3 samples.

Results

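Brainstem RNA of rats in the hand acupuncture group was set against that of rats in the sham group, 1 array to a side, for every gene that gave a usable signal. A gene was its brightest probe set (a group of short probes for 1 transcript) over the 3 arrays of the series, among those with exactly 1 gene symbol. It was kept if its mean log2 signal reached the median of the probe sets that are no controls, 7.44, called the floor below. That left 9241 of 14217 genes, and the 2 arrays are 2 of 3. Each value below is a log2 signal, and each difference is the hand acupuncture array minus the sham array on that scale, so that 1 unit is 2-fold.

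The series measured a sham group, a group labelled TBI (traumatic brain injury) and a group labelled Hand Acu, all sampled 1 h after modelling. The design text has brainstem samples of 5 animals mixed, read here as 1 pool per group, and 6 µg of RNA went into each labelling. Whether the acupuncture rats were also injured, which points were needled, how the injury was made, and the strain, sex and age of the rats are not given in the sources used here. With 1 array per group there is no replicate error. No difference below was tested, and "higher" and "lower" describe these 2 arrays and not the treatments.

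The brainstem joins the spinal cord to the forebrain and holds the cranial nerve nuclei, the noradrenaline and serotonin neurons that project through the brain, and relays that damp pain. Acupuncture is a manual stimulation of sensory nerves with fine needles, and opioid peptides and serotonin are the transmitters most often studied with it. Immediate early genes such as Fos are switched on within minutes in stimulated neurons and are a common readout of which cells were driven. The cerebellum lies on the back of the brainstem, so that its granule and Purkinje cells are the nearest tissue that a dissection can take along.

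The arrays were close in scale. Their median linear signals were 174.7 for sham, 174.1 for TBI and 174.2 for hand acupuncture. Control probe sets at the 3' and 5' ends of a transcript give a ratio that reflects RNA integrity, which was 5.58, 6.37 and 6.69 for beta-actin in the same order. For Gapdh it was 1.25 on sham and 1.28 on hand acupuncture. For hexokinase it was 1.96 and 1.17. The ratio was thus higher on hand acupuncture than on sham for 2 of these controls and lower for the other, and the part of RNA quality in the differences below was not tested.

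The tissue label was set beside 15 genes that define brainstem neurons, a list made after values had been seen. Of these, 6 were above the floor, where over all genes 9241 of 14217 were. Among the 6 is Hoxa5, which was below the floor on the sham array at 7.35 and passed through the other arrays. Another is Slc17a6, the vesicular glutamate transporter of brainstem and diencephalic neurons. It read 12.26 on the sham array, 12.50 on TBI and 12.40 on hand acupuncture. Th, the first enzyme of catecholamine synthesis, read 9.21, 9.38 and 9.14, and Chat, which makes acetylcholine in motor nuclei, 7.71, 7.96 and 7.99. The other 9 were below the floor on average. Among them were Slc6a5, the glycine transporter of brainstem inhibitory neurons (3.14, 3.02 and 2.11), and Dbh, the noradrenaline enzyme (5.64, 6.25 and 6.37). Markers of neighbouring and distant regions were above the floor beside them. Of 20 cerebellar granule cell markers 15 were, Neurod1 reading 12.58, 11.99 and 12.12. Of 25 genes known for striatal neurons, a further list made after values had been seen, 23 were. These counts describe which markers passed the floor and were no test of the label. In pooled tissue fewer cells of a type and less RNA per cell cannot be told apart.

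Most genes lay close together on the hand acupuncture and sham arrays. The median difference was 0.00 with an SD over genes of 0.21, and 83.5% of genes were within 1.2-fold. Above 0 were 4712 genes, 51.0% of those tested, and below 0 were 4529, 49.0%. At least 1.5-fold higher on the hand acupuncture array were 92 genes (0.996%), and at least 1.5-fold lower 83 (0.898%). At least 2-fold apart were 9 genes in each direction, 0.0974% each way. The spread depended on signal, the SD being 0.28 in the dimmest and 0.14 in the brightest of 4 equal bins of genes ranked by mean signal. Of the 175 genes past 1.5-fold either way (1.89%), 60 higher and 44 lower ones fell in the dimmest bin. The floor was set on the mean of the 3 arrays, so a gene dim on 1 array could pass through the others, which in part sets its direction. Of the 25 highest genes 7 were below the floor on the sham array, and of the 25 lowest 9 were below it on the hand acupuncture array.

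**Figure D1:**
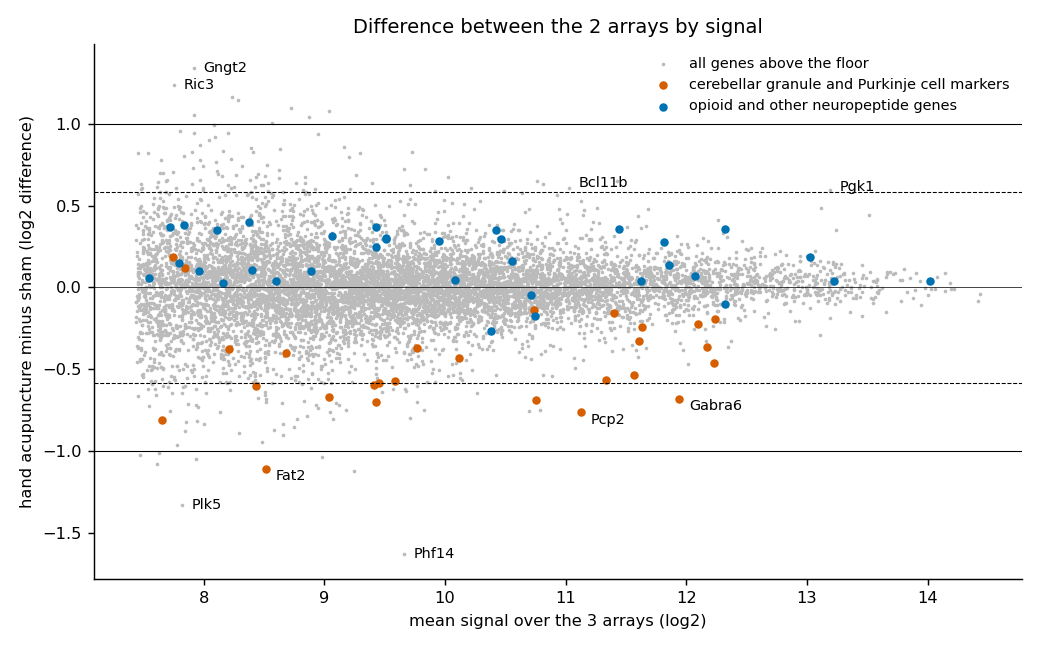
Each dot is 1 of 9241 genes, with its mean log2 signal over the 3 arrays on the x axis and hand acupuncture minus sham in log2 units on the y axis, and lines at 1.5-fold (dashed) and 2-fold (solid). The cloud narrows to the right, cerebellar markers (orange) lie mostly below 0 at all signals, and neuropeptide genes (blue) mostly a little above it.

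A further probe set of the same gene gives a second reading from the same RNA. Above the floor, 2073 genes had at least 2 probe sets, and the brightest pair differed by a median of 0.16 in hand acupuncture minus sham, and by up to 0.60 in 95% of them. All probe sets of a gene were higher in 457 genes and lower in 584, and in 1032 they disagreed in direction. Of the 27 such genes past 1.5-fold on the brightest probe set, the next brightest had the same direction in 17 and the opposite one in 10. It was past 1.5-fold the same way in 2, Gabra6 and Hpcal1. A fold of 1.5 on 1 probe set was therefore seldom met again on the next.

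**Figure D2:**
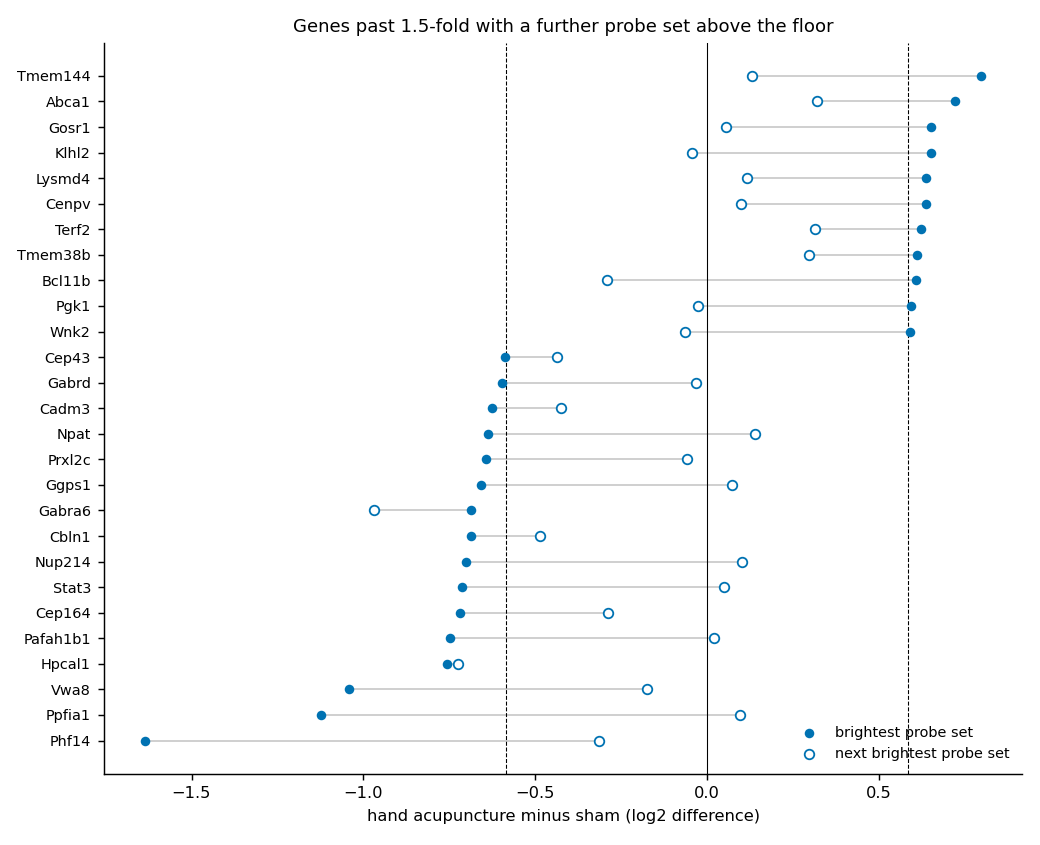
For the 27 genes past 1.5-fold with another probe set above the floor, hand acupuncture minus sham (log2) is shown for the brightest probe set (filled) and the next brightest (open), with dashed lines at 1.5-fold. Open circles crowd near 0, on the far side of it in 10 genes, and lie past a dashed line only for Gabra6 and Hpcal1.

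Genes of the cerebellar cortex made up the clearest group among the lower genes. Of 12 Purkinje cell markers above the floor, from 20 listed, all 12 had less signal after hand acupuncture than in the sham pool. Their median difference was -0.50, and 5 were at least 1.5-fold lower. Slc1a6, counted among the 5, was above the floor on the sham array alone. Of 15 granule cell markers above the floor, from 20 listed, 13 were lower. Their median was -0.46, and 4 were at least 1.5-fold lower. The same medians for TBI minus sham, which shares the sham array, were -0.27 and -0.44. Over all genes 49.0% were lower, with a median of 0.00, and 0.898% were at least 1.5-fold lower.

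Granule cells are small excitatory neurons packed under the cerebellar surface. Their alpha-6 GABA-A receptor subunit, Gabra6, read 12.38 on the sham array, 11.76 on TBI and 11.69 on hand acupuncture, a difference of -0.69 or 1.61-fold. Its other probe set read 11.11, 10.20 and 10.14, a difference of -0.97. Sham was the highest array on both. Fat2, a large cadherin of granule cell axons, read 9.14, 8.38 and 8.03, a difference of -1.11, and stands among the 9 genes at least 2-fold lower. Cbln1, which granule cells secrete to hold their synapses on Purkinje cells, read 11.16, 10.62 and 10.48, and its 2 probe sets differed by -0.69 and -0.49. Reln, the extracellular guide of neuron migration that granule cells go on making, differed by -0.54 and -0.92 on its 2 probe sets. All 5 probe sets of the transcription factor Etv1 were lower, by -0.31 to -0.61. Gabrd, the delta subunit that pairs with Gabra6 outside synapses, differed by -0.60 and -0.03 on its 2 probe sets above the floor and by -0.23 on one below it. En2, a transcription factor that patterns the cerebellum, lay just under 1.5-fold at -0.58. Zic2 and Uncx, transcription factors, were the 2 members that were higher, at 0.19 and 0.12. All 12 further probe sets of members, counting those above the floor, had the sign of their gene's brightest one.

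Purkinje cells are the output neurons of the cerebellar cortex. Pcp2, a modulator of G-protein signalling found in few cells beside them, read 11.56, 11.01 and 10.80 on sham, TBI and hand acupuncture, a difference of -0.76. Slc1a6, their glutamate transporter, read 8.18, 7.42 and 7.37, a difference of -0.81. It was below the floor on TBI and hand acupuncture and passed through the sham array alone, which in part sets its direction. Ppp1r17, a phosphatase inhibitor, read 9.85, 9.30 and 9.15, a difference of -0.70. For these 3 genes the sham array was the highest and the hand acupuncture array the lowest. Rora, the nuclear receptor that Purkinje cells need to develop, differed by -0.67, and Gdf10, a growth factor of the glia around them, by -0.61. A probe set of Rora below the floor differed by 0.30. Calb1, a calcium buffer, lay nearer to 0 at -0.23, as did Itpr1, the calcium release channel, at -0.20 and Plcb4, a phospholipase, at -0.16.

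The 250 bases before the start of 3 of these genes are shown, searched for AGGTCA, letters that the factor Rora binds. Rora is itself on the Purkinje list, and any part of it in the differences was not tested. They come from RefSeq on the assembly GRCr8 and are printed 5' to 3' on the gene's strand. Capitals mark a match to AGGTCA on either strand, the motif or its reverse complement, and Gabra6 has none.
Pcp2, chr12:6481308-6481557, minus strand: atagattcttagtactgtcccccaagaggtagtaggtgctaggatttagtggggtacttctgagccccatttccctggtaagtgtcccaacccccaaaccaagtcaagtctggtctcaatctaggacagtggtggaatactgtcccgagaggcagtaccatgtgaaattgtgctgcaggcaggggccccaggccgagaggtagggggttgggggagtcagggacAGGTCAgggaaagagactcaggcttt
Grin2c, chr10:101005139-101005388, minus strand: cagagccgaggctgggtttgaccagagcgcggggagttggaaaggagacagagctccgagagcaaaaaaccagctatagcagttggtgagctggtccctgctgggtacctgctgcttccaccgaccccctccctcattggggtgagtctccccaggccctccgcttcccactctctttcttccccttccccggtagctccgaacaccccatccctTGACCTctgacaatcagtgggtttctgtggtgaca
Gabra6, chr10:27327235-27327484, minus strand: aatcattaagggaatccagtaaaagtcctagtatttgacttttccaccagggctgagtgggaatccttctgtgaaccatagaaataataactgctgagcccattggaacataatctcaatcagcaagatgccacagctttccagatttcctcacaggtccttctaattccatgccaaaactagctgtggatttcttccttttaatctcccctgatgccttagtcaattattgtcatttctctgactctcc

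The match begins 26 bases before the start of Pcp2 and 35 before that of Grin2c, the NMDA receptor subunit of granule cells (9.98, 9.72 and 9.61 on the 3 arrays, a difference of -0.37). Windows of 250 bases before and 50 after the start were searched on both strands. AGGTCA was in 15.7% of all 27457 promoters in the table and in 10.8% of the 7744 that belong to genes above the floor. It was in 2 of 10 Purkinje promoters, Pcp2 and Homer3, and in 1 of 13 granule cell promoters, that of Grin2c shown here. These counts are small, and a match is a run of letters and no evidence of binding. The other motifs searched had no match in the 3 sequences shown. CAGATG, an E-box read by Neurod factors, was in 10.2% of the promoters of genes above the floor and in 5 of 12 for forebrain markers. For granule cell markers it was in 1 of 13 and for Purkinje markers in 0 of 10. Immediate early genes had it in 2 of 25, glucocorticoid-responsive genes in 1 of 25, and the 25 highest and 25 lowest genes in 2 of 16 and 0 of 17. TGACGTCA, the full CRE that CREB binds, was in 3.36% and in 3 of 25 immediate early genes, Jund, Ier2 and Dusp1. For granule cell markers it was in 0 of 13 and for Purkinje markers in 0 of 10. Glucocorticoid-responsive genes had it in 1 of 25, forebrain markers in 1 of 12, and the 25 highest and 25 lowest genes in 1 of 16 and 0 of 17. The palindromic NFI site was in 12 of the 27457 promoters and in none of the lists searched.

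**Figure D3:**
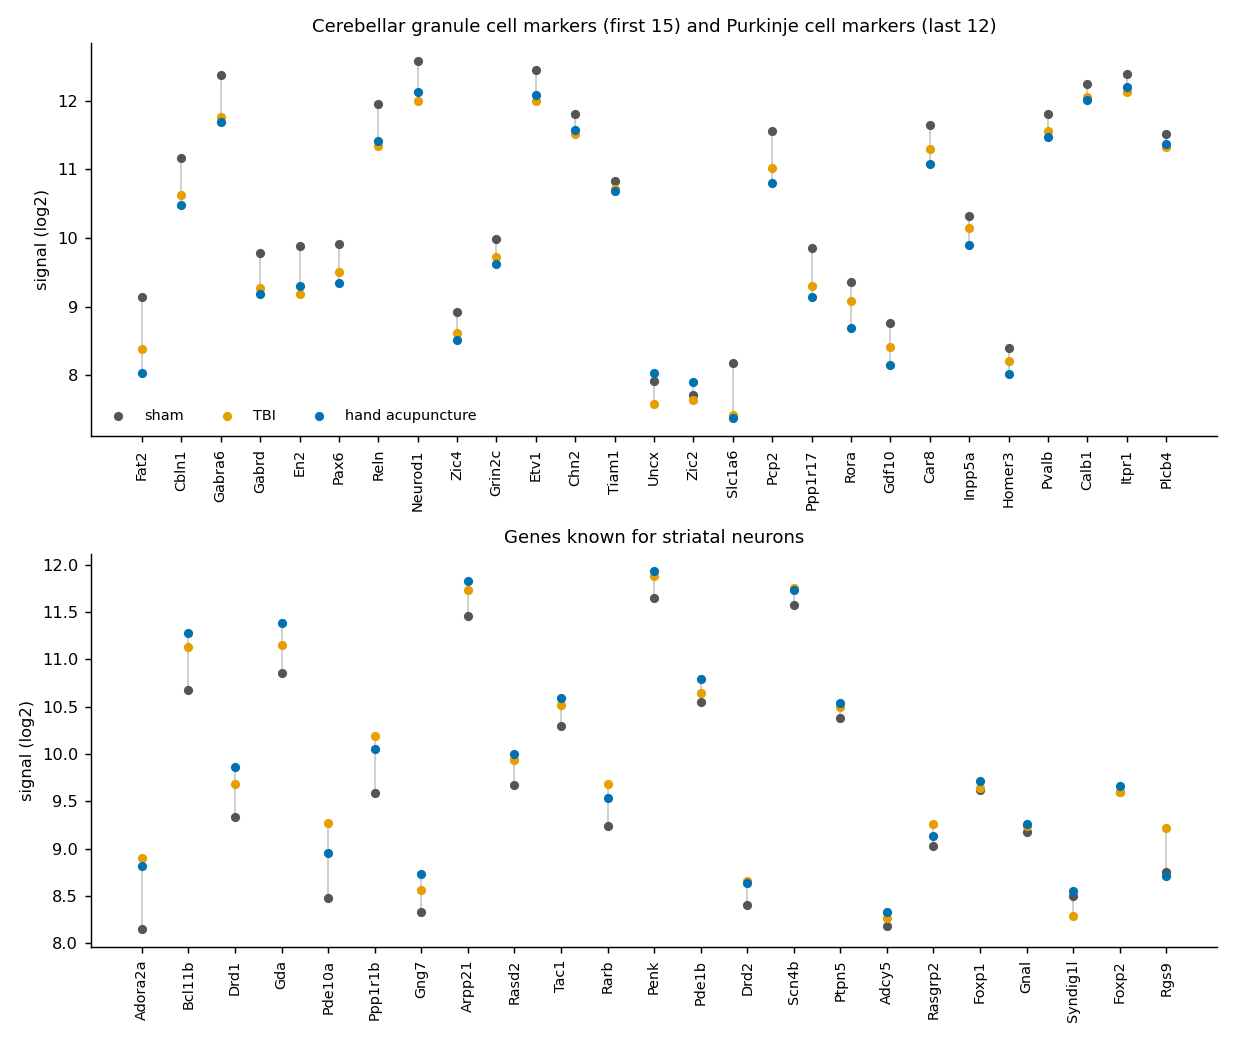
Log2 signal on the sham (grey), TBI (orange) and hand acupuncture (blue) arrays for 15 granule cell and 12 Purkinje cell markers (top) and 23 genes known for striatal neurons (bottom), 1 pool per array. The grey point is on top for 25 of the 27 cerebellar markers, all but Zic2 and Uncx, while hand acupuncture lies above sham for 22 of the 23 striatal genes, all but Rgs9.

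Other genes known for cerebellar cells were among the lowest, though on no list. Unc13c, a synaptic vesicle priming protein of granule cells, read 10.22, 9.81 and 9.47, a difference of -0.75. Hpcal1, a calcium sensor abundant in Purkinje cells, read 11.15, 10.55 and 10.39, and its 2 probe sets differed by -0.76 and -0.73. Dao, D-amino acid oxidase, which cerebellar glia use to break down D-serine, read 8.04, 7.35 and 7.02, a difference of -1.03. Dao was below the floor on TBI and hand acupuncture and passed through the sham array alone, which in part sets its direction. Sham was the highest and hand acupuncture the lowest array for all 3. These are named by the rule for the lowest genes, and their link to the cerebellum is background.

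Genes of forebrain neurons went the other way in part. Of 17 forebrain markers above the floor, from 26 listed, 11 were higher and 6 lower, with a median of 0.10, and 2 were at least 1.5-fold higher. The higher ones included genes of the striatum, and of the 23 striatal genes above the floor 22 were higher. That list was chosen for this and so describes it only. Over all genes 51.0% were higher, and 0.996% at least 1.5-fold higher. Drd1, the dopamine receptor of the direct pathway, read 9.34, 9.68 and 9.86 on sham, TBI and hand acupuncture, with differences of 0.53 and 0.52 on its 2 probe sets. Adora2a, the adenosine receptor of the indirect pathway, read 8.15, 8.90 and 8.82, a difference of 0.67, and differed by -1.48 on a probe set below the floor. Ppp1r1b, the dopamine-regulated phosphatase inhibitor DARPP-32, read 9.59, 10.18 and 10.05, a difference of 0.46. Sham was the lowest array for each of the 3 on the brightest probe set. Pde10a, a striatal phosphodiesterase, differed by 0.47 and 0.49 on its 2 probe sets and Gda, guanine deaminase, by 0.53 and 0.45. Bcl11b, a transcription factor of striatal and deep cortical neurons, differed by 0.61 on its brightest probe set, by -0.29 on the next and by -0.84 on one below the floor. Cortical markers lay near 0, such as Neurod6, a transcription factor, at -0.13, Lamp5, a membrane protein of cortical neurons, at -0.08 and Cux2, an upper-layer transcription factor, at 0.11.

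Hox genes mark the caudal hindbrain and spinal cord, and 3 of 21 listed were above the floor. Hoxa5 read 7.35 on sham, 8.57 on TBI and 8.34 on hand acupuncture, a difference of 0.99, with sham apart from both others. Hoxb2 and Hoxb3 differed by -0.13 and 0.13. Of 7 brainstem transcription factors above the floor, from 26 listed, 4 were higher and 3 lower, with a median of 0.04. Tal1, which specifies midbrain GABA neurons, was highest at 0.54, and En2, also a granule cell marker, lowest. A probe set of Tal1 below the floor differed by -2.26.

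Other cell type lists had medians close to that of all genes. Of 24 myelin genes 18 were higher, with a median of 0.06, and Mbp, a major myelin protein, read 14.04, 14.11 and 14.03. Of 22 astrocyte markers 9 were higher, with a median of -0.05, and Gfap, the astrocyte filament, read 12.38, 12.67 and 12.39. Of 16 microglia and macrophage markers 10 were higher, with a median of 0.09. The leukocyte list had 1 of 20 members above the floor, Cd74 at 0.27, and the 4 red cell and platelet genes above it had a median of -0.01. Hbb, beta globin, read 13.46, 13.79 and 13.39, so that sham and hand acupuncture were close for this gene.

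Meningeal genes were more often lower, and vessel genes were mixed. Lower were 16 of 19 meningeal and fibroblast markers, none past 1.5-fold and the median at -0.11, the lowest being Slc13a4, a sulfate transporter, at -0.40. Over all genes 49.0% were lower. Of 23 endothelial markers 14 were lower, with a median of -0.04. Cldn5, the tight junction claudin of the blood-brain barrier, read 11.14, 10.69 and 10.60, a difference of -0.54 with sham the highest array. Of 9 pericyte and smooth muscle markers 5 were lower and 4 higher, with a median of -0.09. Tagln, an actin-binding protein of smooth muscle, read 9.09, 8.45 and 8.22, a difference of -0.87, and Mcam, an adhesion molecule of vessel walls, 8.38, 8.87 and 8.73, a difference of 0.35. Fn1, fibronectin, read 10.15, 10.32 and 9.61, a difference of -0.54. Of 16 choroid plexus and ependymal markers 9 were lower. Foxj1, the master factor of motile cilia, was at 0.56 and Prlr, the prolactin receptor of choroid plexus, at -0.56, so that this list had no common direction. On further probe sets below the floor, Prlr was at 1.30 and 0.25. Ttr, the main choroid plexus transcript, read 13.93, 14.07 and 13.82.

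Genes for peptide transmitters were mostly a little higher. All 5 opioid genes above the floor, from 8 listed, were higher, with a median of 0.28 and none past 1.5-fold. Over all genes 51.0% were higher. Penk, which encodes the enkephalins, read 11.65, 11.88 and 11.93 on sham, TBI and hand acupuncture, a difference of 0.28. Pdyn, the dynorphin precursor, read 9.34, 9.57 and 9.63, a difference of 0.30, and Pnoc, the nociceptin precursor, 7.53, 8.08 and 7.91, a difference of 0.38. For all 3 precursors sham was the lowest array. The kappa receptor gene Oprk1 differed by 0.15 and the nociceptin receptor gene Oprl1 by 0.04. Oprm1, Oprd1 and Pomc, which encode the mu and delta receptors and the beta-endorphin precursor, were below the floor. Penk is also made in quantity by striatal neurons, and their part in this result was not tested.

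Of 29 further neuropeptide and secretory granule genes above the floor, from 47 listed, 25 were higher, against 51.0% of all genes. Their median was 0.14, with none past 1.5-fold. The same median for TBI minus sham was 0.21. Calca, which encodes the sensory and motor neuron peptide CGRP, led at 0.40, reading 8.06, 8.59 and 8.47. Nts, neurotensin, read 9.15, 9.62 and 9.52, a difference of 0.37. Npy, neuropeptide Y, read 10.24, 10.42 and 10.59, a difference of 0.35, and Vgf, a neuronal secretory protein, 11.22, 11.53 and 11.57, a difference of 0.35. Sham was again the lowest array for each. Pmch, the hypothalamic melanin-concentrating hormone, differed by 0.36, and Oxt, oxytocin, by -0.18, having read 10.61, 11.19 and 10.43. The granule proteins and processing enzymes of the list lay near 0, as with Chga at 0.05, Scg5 at 0.04 and Cpe at 0.04.

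Among 15 neuropeptide receptor genes 9 were higher, with a median of 0.13. Npy5r, a receptor of neuropeptide Y, read 7.60, 8.04 and 8.26, a difference of 0.66 close above the floor, and Npr1, the natriuretic peptide receptor, differed by 0.49.

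Serotonin, catecholamine and acetylcholine genes had little in common across members. Over all genes 51.0% were higher. Of 9 serotonin genes above the floor 6 were higher, with a median of 0.23. With all probe sets of a gene averaged, that median was -0.01, so its direction depends on the probe sets used. Slc6a4, the serotonin transporter, read 8.16, 8.64 and 8.50, a difference of 0.34, and Slc18a2, which loads monoamines into vesicles, 8.97, 9.24 and 9.23, a difference of 0.26. Gch1, the first enzyme of tetrahydrobiopterin synthesis, read 6.90, 7.75 and 7.73, a difference of 0.83. Htr7, a serotonin receptor, differed by 0.44 and Htr2a, another, by -0.24. Of 14 catecholamine genes 9 were higher, with a median of 0.15, and Th itself differed by -0.07. This list shares members with the serotonin list, Slc18a2 and Gch1 among them. Of 6 cholinergic genes 5 were higher. Ric3, a chaperone that folds nicotinic receptors, read 7.21, 7.60 and 8.45, a difference of 1.24, and was the second highest gene of all. Gch1 and Ric3 were below the floor on the sham array and passed through the others.

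Among fast transmitter receptors, the members past 1.5-fold were also cerebellar markers. Of 8 GABA-A receptor subunits 5 were higher, and the 2 at least 1.5-fold lower were the granule cell subunits Gabra6 and Gabrd. Gabra5, a subunit of hippocampal and other forebrain neurons, differed by 0.38. Of 23 glutamate receptor and transport genes 16 were lower, with a median of -0.08, and the 1 past 1.5-fold was the Purkinje transporter Slc1a6. As given above, Slc1a6 passed the floor through the sham array alone. Of 27 synaptic adhesion and scaffold genes 17 were lower, with a median of -0.05. Lrrc4, a postsynaptic partner of netrin-G2, read 7.86 on sham, 7.83 on TBI and 9.02 on hand acupuncture, a difference of 1.16. Shank3, a postsynaptic scaffold, read 8.25, 8.35 and 7.42, a difference of -0.84. Clstn3, a synaptic adhesion protein, read 9.13, 9.32 and 8.40, a difference of -0.74. For these 3 genes sham and TBI were close and hand acupuncture stood apart on the brightest probe set. Another probe set of Lrrc4, below the floor, differed by -0.03. Shank3 was just below the floor on hand acupuncture and passed through the other arrays. Synaptic vesicle genes, 26 of them, had a median of 0.01, and 31 potassium channel subunits a median of 0.05. Kcnj11, the ATP-sensitive channel subunit, was the 1 of those past 1.5-fold, at 0.64. On probe sets below the floor Kcnj11 differed by -0.29 and 0.25.

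Immediate early genes were mixed. Of 33 above the floor, from 48 listed, 23 were higher and 10 lower, with a median of 0.05, and 3 were at least 1.5-fold higher. Over all genes 51.0% were higher, and 0.996% at least 1.5-fold higher. Fosb, an AP-1 subunit, read 7.46, 8.32 and 8.20 on sham, TBI and hand acupuncture, a difference of 0.74. Egr4, a zinc finger factor of the same class as Egr1, read 7.52, 7.96 and 8.26, a difference of 0.73, and Egr2 8.13, 8.58 and 8.76, a difference of 0.63. Sham was the lowest array for all 3 on the brightest probe set, and each lies in the dimmest of the 4 bins. In that bin 60 of 2311 genes were at least 1.5-fold higher. On probe sets below the floor, Egr4 differed by 1.94 and Egr2 by -0.29. Fos itself read 10.35, 10.83 and 10.82, a difference of 0.46, and differed by -1.52 on a probe set below the floor. Nr4a3, an orphan nuclear receptor, differed by 0.56 and 0.42 on its 2 probe sets above the floor and by 0.75 on the one below it. Egr1 read 11.77, 11.69 and 12.04, a difference of 0.27, and Nr4a1 9.66, 9.25 and 9.68, a difference of 0.02. Jun, Junb and Gadd45b, which respond in the same time window, differed by -0.26, -0.35 and -0.54. Of 12 further probe sets of list members above the floor, 6 had the sign of the brightest one.

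Genes that glucocorticoids induce were evenly placed, with 14 higher and 14 lower of 28 above the floor and a median of -0.01, against 0.16 for TBI minus sham. Cebpd, a transcription factor that steroids and cytokines induce, read 7.95, 8.43 and 8.80, a difference of 0.85. Cebpd was the 1 member past 1.5-fold, and its 2 probe sets below the floor differed by 0.43 and -0.95. Sgk1, a steroid-induced kinase, read 12.87, 13.23 and 13.09, a difference of 0.23. Tsc22d3, also known as Gilz, differed by 0.28 and Fkbp5, a chaperone of the steroid receptor, by 0.19.

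Of 20 clock genes 13 were lower, with a median of -0.08, and 2 were past 1.5-fold. These were Rora, counted above as a Purkinje marker, and Per3, a period gene, at 8.54, 7.37 and 7.92, a difference of -0.62. Nr1d2, a nuclear receptor of the clock, differed by -0.43, while Per1 differed by 0.01 and Bmal1 by -0.10. The time of day of sampling is not given in the sources used here.

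Injury and stress lists had medians near that of all genes. Of 14 inflammatory mediators above the floor, from 41 listed, 10 were higher, with a median of 0.05. Csf1, the macrophage growth factor, differed by 0.48 and 0.57 on its 2 probe sets above the floor and by 0.33 and 0.01 on 2 below it. Ptgs2, cyclooxygenase-2, differed by 0.33. Heat shock genes divided 11 and 12. Hspb1, a small heat shock protein, was at 0.56 and Hspa4, an Hsp70 partner, at -0.70. Apoptosis regulators had a median of -0.02, and Aven, an inhibitor of cell death, read 8.04, 9.08 and 8.59, a difference of 0.55. Of 27 antioxidant genes 17 were higher, with a median of 0.03, Gpx3, the secreted glutathione peroxidase, being highest at 0.57 and Hmox1, heme oxygenase-1, lowest at -0.51.

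Metabolic lists were narrow, and over all genes 51.0% were higher. Of 22 cholesterol synthesis genes 19 were higher, with a median of 0.11 and none past 1.5-fold, led by Dhcr7, the last step of the pathway, at 0.33. Of 8 further probe sets of its members above the floor, 3 had the sign of the brightest. Of 66 oxidative phosphorylation subunits 40 were higher, with a median of 0.02, of 32 proteasome subunits 22, with a median of 0.07, and of 39 ribosomal proteins 18, with a median of -0.01. Of 30 hypoxia and glycolysis genes 19 were higher, with a median of 0.06. Pfkfb4, which sets the level of a glycolytic activator, differed by 0.78 and, on a probe set below the floor, by -0.60. Its brightest probe set was below the floor on the sham array. Pgk1, a glycolytic enzyme, differed by 0.59 on its brightest probe set, by -0.03 on the next and by 2.66 on one below the floor.

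**Figure D4:**
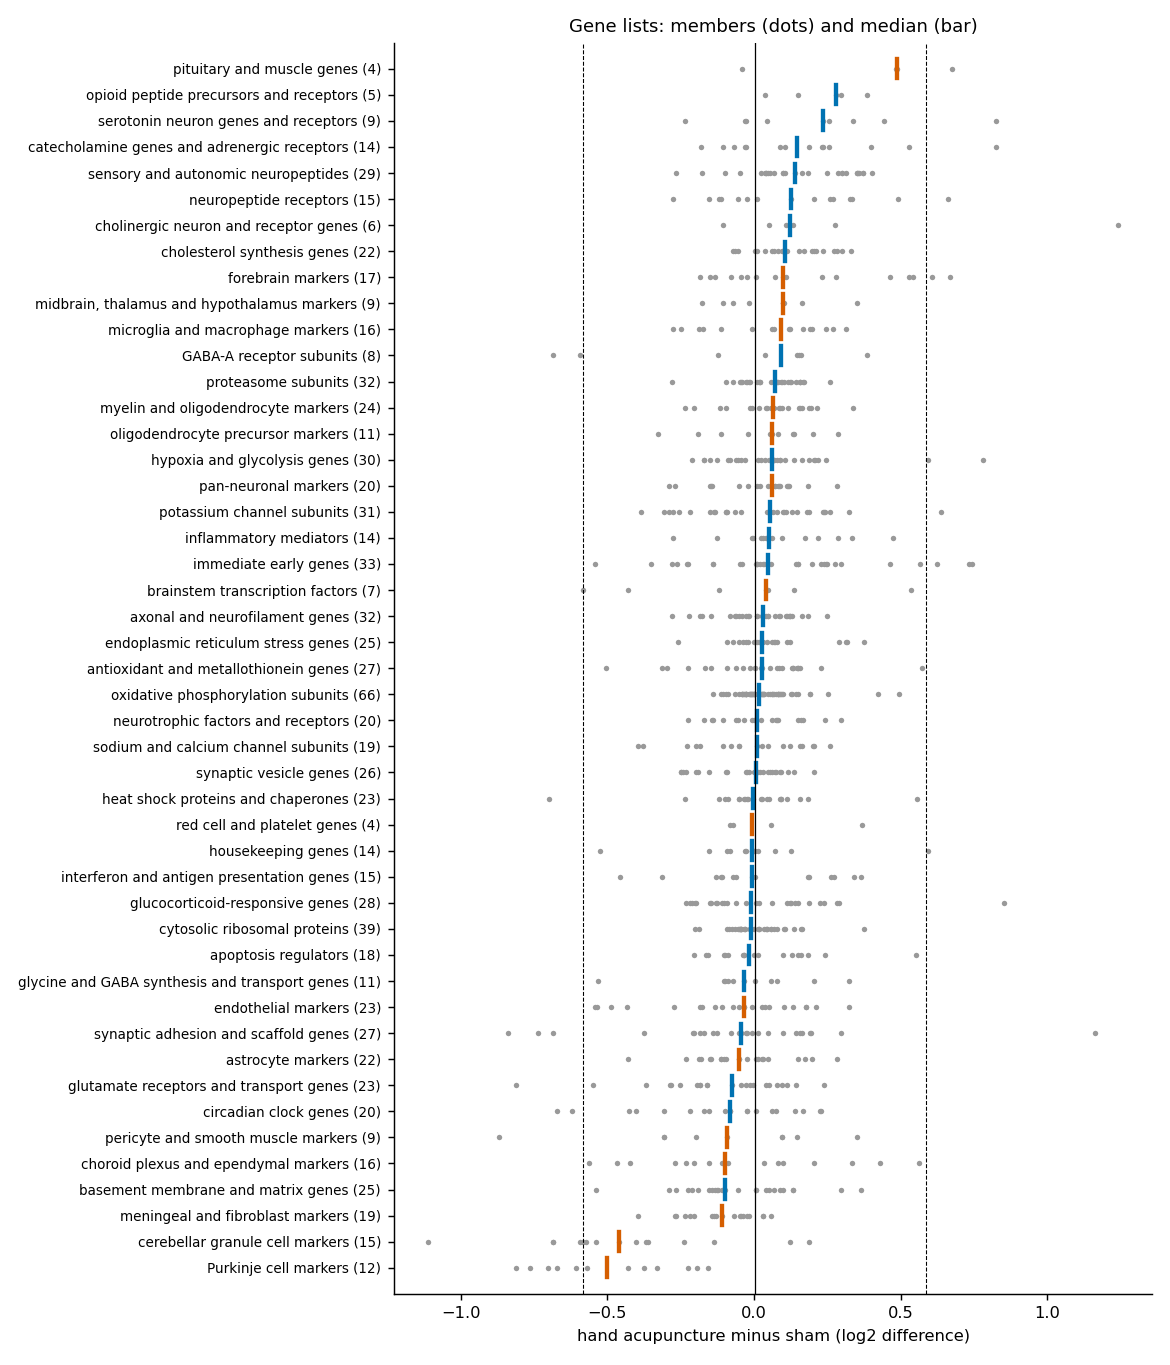
Hand acupuncture minus sham (log2) for the members of 47 gene lists with at least 4 genes above the floor (dots, their number in brackets) and the list median (orange bar for cell type and region lists, blue for functional lists), with a black line at the median of all genes and dashed lines at 1.5-fold. The 2 cerebellar lists lie apart at the bottom with medians of -0.46 and -0.50, and all but 3 of the other medians lie between -0.11 and 0.15.

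Among single genes, the 9 at least 2-fold higher were led by Gngt2, the gamma subunit of the cone photoreceptor G protein, at 7.22 on sham, 7.99 on TBI and 8.56 on hand acupuncture, a difference of 1.34 or 2.53-fold. Ric3 and Lrrc4 followed. Utp11, which works in ribosome assembly, read 7.79, 8.12 and 8.94, a difference of 1.15. Palmd, palmdelphin, read 7.89, 9.30 and 8.99, Ttll11, an enzyme that adds glutamate to tubulin, 8.32, 9.40 and 9.40, and Vti1b, an endosomal SNARE, 7.38, 7.95 and 8.44. Further probe sets of Palmd, below the floor, differed by -0.09, 1.12 and -0.18. Pde6g, the inhibitory subunit of the rod phosphodiesterase, and Cenpx, a centromere and DNA repair protein, completed the 9 at 1.04 and 1.00. Hoxa5 lay just inside 2-fold at 0.99. Gngt2, Ric3, Vti1b and Hoxa5 were below the floor on sham and passed through the other arrays, which in part sets their direction. For Palmd and Ttll11 sham was the array apart from both others, while for Ric3, Lrrc4, Utp11 and Cenpx it was hand acupuncture.

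The 9 genes at least 2-fold lower were led by Phf14, a chromatin reader, at 10.45, 9.73 and 8.81, a difference of -1.63 or 3.10-fold. Its other 4 probe sets differed by -0.31, -0.03, 0.05 and -0.06. Plk5, a polo-like kinase of neurons, read 8.53, 7.72 and 7.20, a difference of -1.33. Ppfia1, a liprin of focal adhesions and presynaptic sites, differed by -1.12 on its brightest probe set and 0.10 on the other, and Vwa8, a mitochondrial ATPase, by -1.04 and, on its others, -0.17 and -0.55. Zfp111, a zinc finger protein, Adck2, a mitochondrial kinase-like protein, and Zfyve1, a lipid-binding protein of autophagy, differed by -1.08, -1.05 and -1.01. On further probe sets below the floor, Adck2 differed by 0.29 and Zfyve1 by -0.08 and -0.59. Fat2 and Dao, named above, made up the rest. On hand acupuncture Plk5, Zfp111, Adck2, Zfyve1 and Dao were below the floor, at 7.20, 7.13, 7.31, 7.06 and 7.02. They passed through the other arrays, Dao through sham alone, which in part sets their direction. Fbxo41, a neuronal F-box protein, lay just inside 2-fold at -0.97 and was also below the floor on hand acupuncture. Limk1, the kinase that inactivates cofilin, read 8.98, 8.44 and 8.04, a difference of -0.94.

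**Figure D5:**
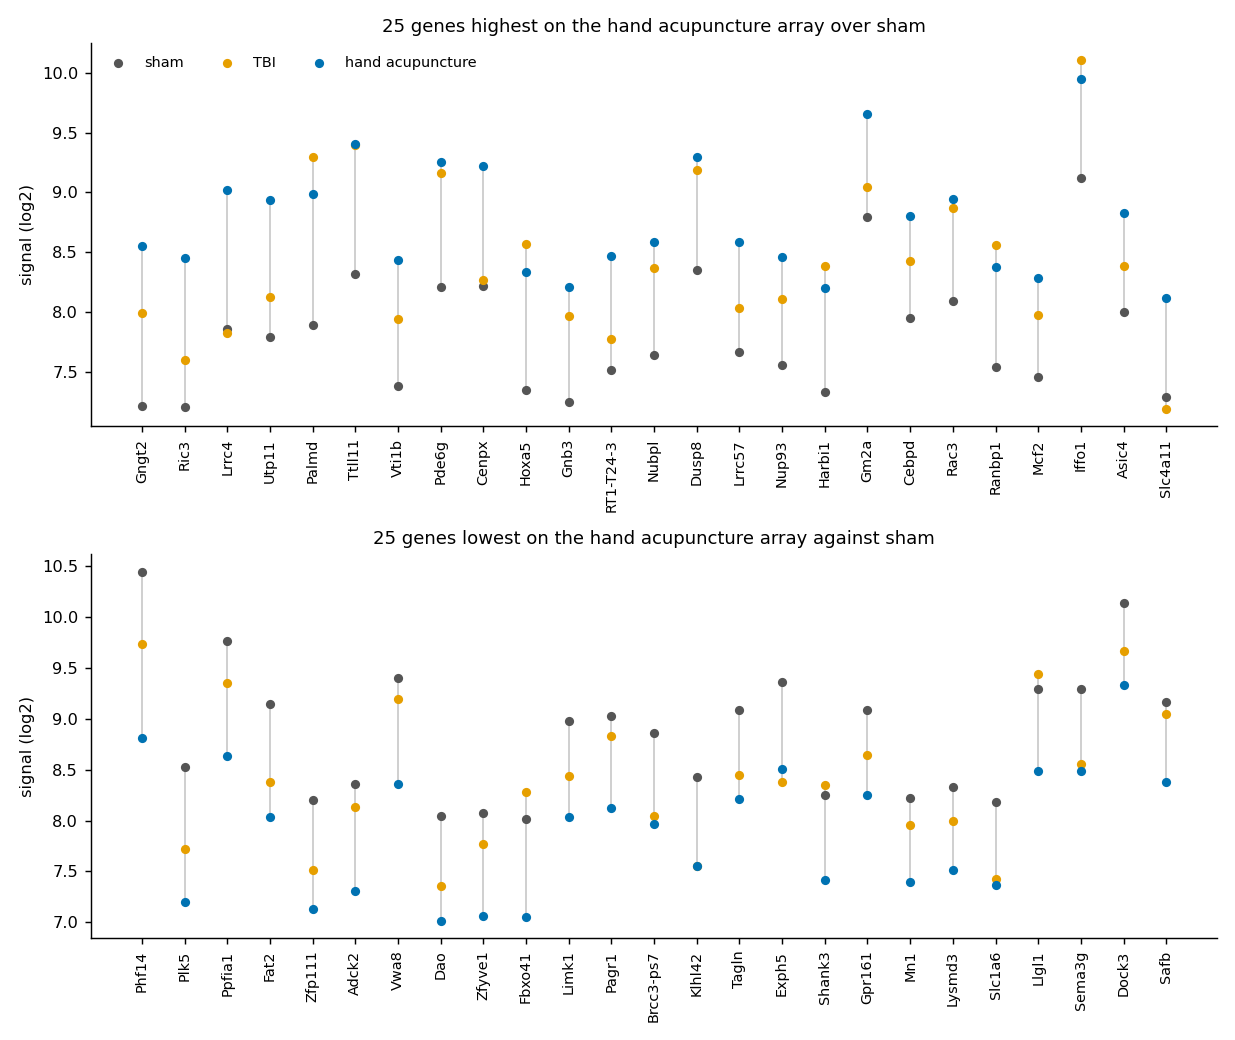
Log2 signal on the sham (grey), TBI (orange) and hand acupuncture (blue) arrays for the 25 genes with the highest (top) and the 25 with the lowest (bottom) difference between hand acupuncture and sham, 1 pool per array. The TBI point is near sham for some (Lrrc4, Cenpx, Vwa8), near hand acupuncture for others (Ttll11, Dusp8, Sema3g) and between them for many.

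Differences in well-measured genes were smaller. Of 5255 genes with a mean log2 signal of at least 9.25, the 75th percentile of probe sets, 16 were at least 1.5-fold higher (0.304%) and 17 lower (0.324%). Leading the higher ones were Iffo1, an intermediate filament relative, at 9.12, 10.11 and 9.95, and Pacs1, a sorting protein of the trans-Golgi, at 8.87, 9.32 and 9.70, with differences of 0.83 and 0.82. Below the floor, further probe sets of Iffo1 differed by -0.61 and 0.07, and one of Pacs1 by 0.31. Abca1, the cholesterol exporter, read 9.35, 10.08 and 10.07, and its 3 probe sets above the floor differed by 0.72, 0.32 and 0.66, and the one below it by -0.22. Rgs16, a brake on G-protein signalling, read 8.86, 9.38 and 9.55, a difference of 0.69. Sham was the lowest array for these 4 on the brightest probe set. Of the 17 lower ones, 5 are on the cerebellar lists (Pcp2, Ppp1r17, Cbln1, Gabra6 and Gabrd), and Hpcal1 and Unc13c were named beside them above. Dock3, an activator of the GTPase Rac in neurons, read 10.13, 9.67 and 9.33, a difference of -0.80. Hspa4 read 10.12, 9.76 and 9.42. Efhd2, a calcium-binding protein, read 10.48, 10.48 and 9.83, a difference of -0.65, with hand acupuncture alone apart.

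Where all probe sets above the floor agreed, Ptprj, a receptor phosphatase, differed by 0.48 and 0.65, and C8h11orf87, of which no role is given here, by 0.58 and 0.62. On the lower side Cadm3, a neuronal adhesion molecule, differed by -0.62 and -0.42 and Klhl22, a ubiquitin ligase adaptor, by -0.50 and -0.51. Klhl22 has 2 further probe sets below the floor, where values are erratic, and these were at 2.53 and 0.63. Each value here is a second reading of the same 2 pools and no replicate.

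Of the 9241 genes, the hand acupuncture array was at least 1.5-fold above both other arrays for 16 and below both for 19. The same was not counted for the sham or the TBI array, so these numbers have nothing to be set against. Beside Lrrc4, Cenpx, Ric3 and Utp11, the genes above both included Slc4a11, a membrane transporter, at 7.30, 7.19 and 8.12, Tchp, a keratin-binding protein of centrosomes, at 8.33, 8.01 and 9.02, and Hspb7, a small heat shock protein, at 7.66, 7.81 and 8.44. Below both, beside Phf14, Shank3 and Clstn3, were Llgl1, a cell polarity protein, at 9.29, 9.44 and 8.48, Loxl1, an elastin cross-linking enzyme, at 7.76, 7.85 and 7.03, and Fbxo41 at 8.02, 8.28 and 7.05. For each of these genes sham and TBI lay nearer to each other than to hand acupuncture on the brightest probe set. Slc4a11 was below the floor on sham and TBI and passed through hand acupuncture alone. Ric3 was below it on sham, and Shank3, Loxl1 and Fbxo41 on hand acupuncture, and they passed through the other arrays. The filter in part sets the direction of such genes. Below the floor, further probe sets of Lrrc4, Tchp and Hspb7 differed by -0.03, 0.43 and -0.23.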

How the data were processed

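Rat brainstem RNA was read on 3 Affymetrix arrays, 1 per group, each taken as a pool of 5 animals per the labels' design text. The authors deposited log2 signals. The signals are from MAS5, per the submitters' processing notes, which give no version. This method sets each perfect-match probe against its mismatch partner. The log base and scaling were read from the values: on the linear scale all 3 arrays had a mean of 500.0 after 2% had been trimmed from either end. Arrays give no read depth, so their number and the signal level limit the precision.

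Of 31099 probe sets 57 were controls. Of the other 31042, 20826 had 1 gene symbol in the platform annotation of 2016, 436 had several and 9780 had none and stayed unnamed. Of the 9241 genes described, 9210 were matched by identifier to a RefSeq table of GRCr8, and 0 symbols differed there. Promoter sequences came from a RefSeq table of the same assembly, and no genome was used.

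Hand acupuncture minus sham was taken on the values as deposited, with Python 3.11.15, numpy 2.4.6, pandas 2.3.3, scipy 1.17.1 and matplotlib 3.10.9, by scripts tested on simulated data. Differences were counted at 2-fold and 1.5-fold, and 49 gene lists were described by counts and medians. With 1 array per group no test was run. Comparisons that share the sham array are related by construction, so their values stand side by side only.

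Named genes are the 25 highest and 25 lowest, the 12 highest and lowest with a mean signal of at least 9.25, the 12 highest and lowest whose several probe sets all go 1 way, the 10 farthest above and below both other arrays, and of each list up to 6 members with the largest difference and 2 with the highest signal. Members near 0 were named beside them after their values were seen. The genes and lists were chosen with earlier results of these data known. Settings tried instead were quantile normalization, arrays centred on their medians, an offset of 50 on the linear signal, a gene's probe sets averaged, no floor, a higher floor, a 3-fold limit, probe sets in place of genes, and calls that all probe sets share.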

Additional observations from a re-analysis of the deposited data

How the results depend on the processing

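Counts of genes past a fold moved with the floor and the offset. At 2-fold there were 9 higher and 9 lower. With an offset of 50 on the linear signal these were 4 and 3, without a floor 630 and 406, with the floor at the 75th percentile 0 and 1, and where all of several probe sets had to pass 0 and 0. At 3-fold there were 0 higher and 1 lower. At 1.5-fold, 92 higher and 83 lower became 57 and 54 with the offset, 1255 and 781 when no floor was set, 16 and 17 with the higher floor, and 0 and 2 where all of several probe sets had to pass. Counting probe sets in place of genes gave 128 lower. Fewer genes are tested under the higher floor and the rule on several probe sets. The cause of the other moves was not tested.

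Quantile normalization kept 167 of the 175 genes past 1.5-fold and centring 169. Under both, and with the offset, all 49 list medians stayed within 0.1. When every probe set of a gene entered its value as a mean, the granule cell median was -0.57, the serotonin median reversed to -0.01 and Bcl11b to -0.17. Of the 49 medians 43 then stayed within 0.1, as did 41 of 49 without a floor and 41 of 46 under the higher one, where the Purkinje median was -0.38.

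With 1 pool per group, no replicate was left out, and the spread between animals is unknown. No paired analysis was possible because each group has 1 array. Near the floor 1 probe set decides a gene's value.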

Other observations

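Genes of photoreceptors were looked at as a list of 14, made after Gngt2 and Pde6g had been seen among the highest genes, so that it describes these values only. Of the 14, 4 were above the floor on the mean of the arrays. Of these, 3 (Gngt2, Gnb3 and Rom1) were below it on sham and passed only through the other arrays, so that their direction was largely set by the filter. Over all 14, most of them too dim to read, 12 were higher and 2 lower. Pde6g, which holds the rod phosphodiesterase in check, read 8.21 on sham, 9.16 on TBI and 9.25 on hand acupuncture, a difference of 1.04. Gnb3, the beta subunit of the cone G protein, read 7.25, 7.97 and 8.21, a difference of 0.96, and Rom1, a disc rim protein, 7.15, 7.71 and 7.51, a difference of 0.36. Sham was the lowest array for Gngt2 and for each of these. Below the floor, Gngt1, the gamma subunit of the rod G protein, read 5.50, 6.90 and 7.39, and Opn1sw, the blue cone pigment, 3.56, 4.57 and 4.78. Gnat1, the rod alpha subunit, and Pde6b, a catalytic subunit, were lower, at -0.03 and -2.46. The pineal gland, which lies above the midbrain and shares phototransduction genes with the retina, was looked at through 4 genes. Aanat and Asmt, the last enzymes of melatonin synthesis, and Crx, a factor of pineal cells and photoreceptors, were below the floor at 4.43, 4.86 and 2.49 on sham and 5.28, 5.73 and 4.18 on hand acupuncture. Otx2 was above it, with a difference of 0.10.

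Of the pituitary genes listed, only Tshb and Cga were above the floor, and Prl and Gh1 were not. Tshb, the beta chain of thyrotropin, read 8.49 on sham, 8.85 on TBI and 9.17 on hand acupuncture, and Cga, the chain that pituitary glycoprotein hormones share, 8.89, 9.61 and 9.38. Of the 17 pituitary and muscle genes with a probe set, 4 passed the floor, 3 higher and 1 lower. These counts include the muscle genes Myh1, at 0.48 on its brightest probe set, and Acta1, at -0.04.

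Probe sets without a gene symbol were not among the genes described. Of 3308 above the floor, 45 were at least 1.5-fold higher and 87 lower, with an SD of 0.27 against 0.21 for the named genes.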
